A study of Sus scrofa with 12 samples.

Results

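The genes described here are 71 named genes whose RNA was listed as chromatin-associated in both Meishan (MS) libraries and in neither Large White (LW) library of skeletal muscle. They were picked by name from the GRID-seq lists, which held 1122 different RNAs over 4 libraries, 604 of them with a gene name rather than a transcript or Ensembl number. For comparison, 257 named RNAs were listed in all 4 libraries and 52 in both LW libraries and no MS library. The listing itself chose the 71 genes, so their reads and their spread on chromatin are given as a description without a test. H3K27ac loops at the same genes came from other libraries, did not enter that choice and were tested. RNAs from other chromosomes at these genes were also tested. They came from the same GRID-seq lists, so that test is not independent of the choice.

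The tissue was longissimus muscle of 2-week-old male piglets, frozen before use. LW is a commercial lean breed and MS is a native Chinese breed with more fat in its muscle, and no treatment or genetic modification was applied to either. Each breed gave 2 GRID-seq libraries and 2 H3K27ac BL-HiChIP libraries, numbered replicate 1 and 2, and whether the replicates of a breed came from different animals is not stated in the labels, so the tests measure the spread between libraries. Differences of breed, of individual animal and of library preparation cannot be told apart in this design.

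GRID-seq joins RNA to the DNA next to it in the nucleus through a linker, so that each sequenced pair tells which RNA lay on which stretch of chromatin. Most RNA found on chromatin is nascent RNA still held at the gene that makes it, and only a few transcripts spread over whole chromosomes. BL-HiChIP joins DNA ends that lie close together and keeps the pairs marked by H3K27ac, an acetylation found on active promoters and enhancers, so its loops connect active elements. In skeletal muscle such loops and chromatin RNAs are found at genes of the contractile apparatus, of fuel use and of the response to activity.

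The lists carried reads on their RNAs of 8181721 and 9943666 in LW against 7172517 and 9381797 in MS, and the smallest number of reads of any listed RNA was 441 and 446 in LW against 432 and 455 in MS. Cell type markers were looked up by gene name alone, so RNAs listed under a transcript or Ensembl number were not matched to them. Of 10 myofibre markers, 5 were listed by name in all 4 libraries. RYR1, ACTA1 and the fast myosins MYH1, MYH2 and MYH4 were not listed by name in any. None of the adipocyte, endothelial, immune, satellite cell, erythroid, smooth muscle or Schwann cell markers was listed by name. Of 4 fibroblast markers 2 were, neither of them among the 71 genes. Reads on a gene in bulk tissue cannot separate fewer cells of a type from less RNA per cell.

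The 71 RNAs carried 5.06% of the reads on listed RNAs in MS replicate 1 and 4.58% in MS replicate 2. Their median was 1867 reads in MS replicate 1, from 432 to 37231, and 2157 reads in MS replicate 2, from 455 to 43755. The RNAs of all 4 libraries had higher medians in the same libraries, 4011 and 4697 reads. Reads in replicate 2 were 1.19 times those in replicate 1 at the median, from 0.956 to 1.47 times, and HSPB6 alone had fewer reads in replicate 2. Of the 71 RNAs, 24 had under 1000 reads in MS replicate 1 and 13 had 10000 or more.

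**Figure D1:**
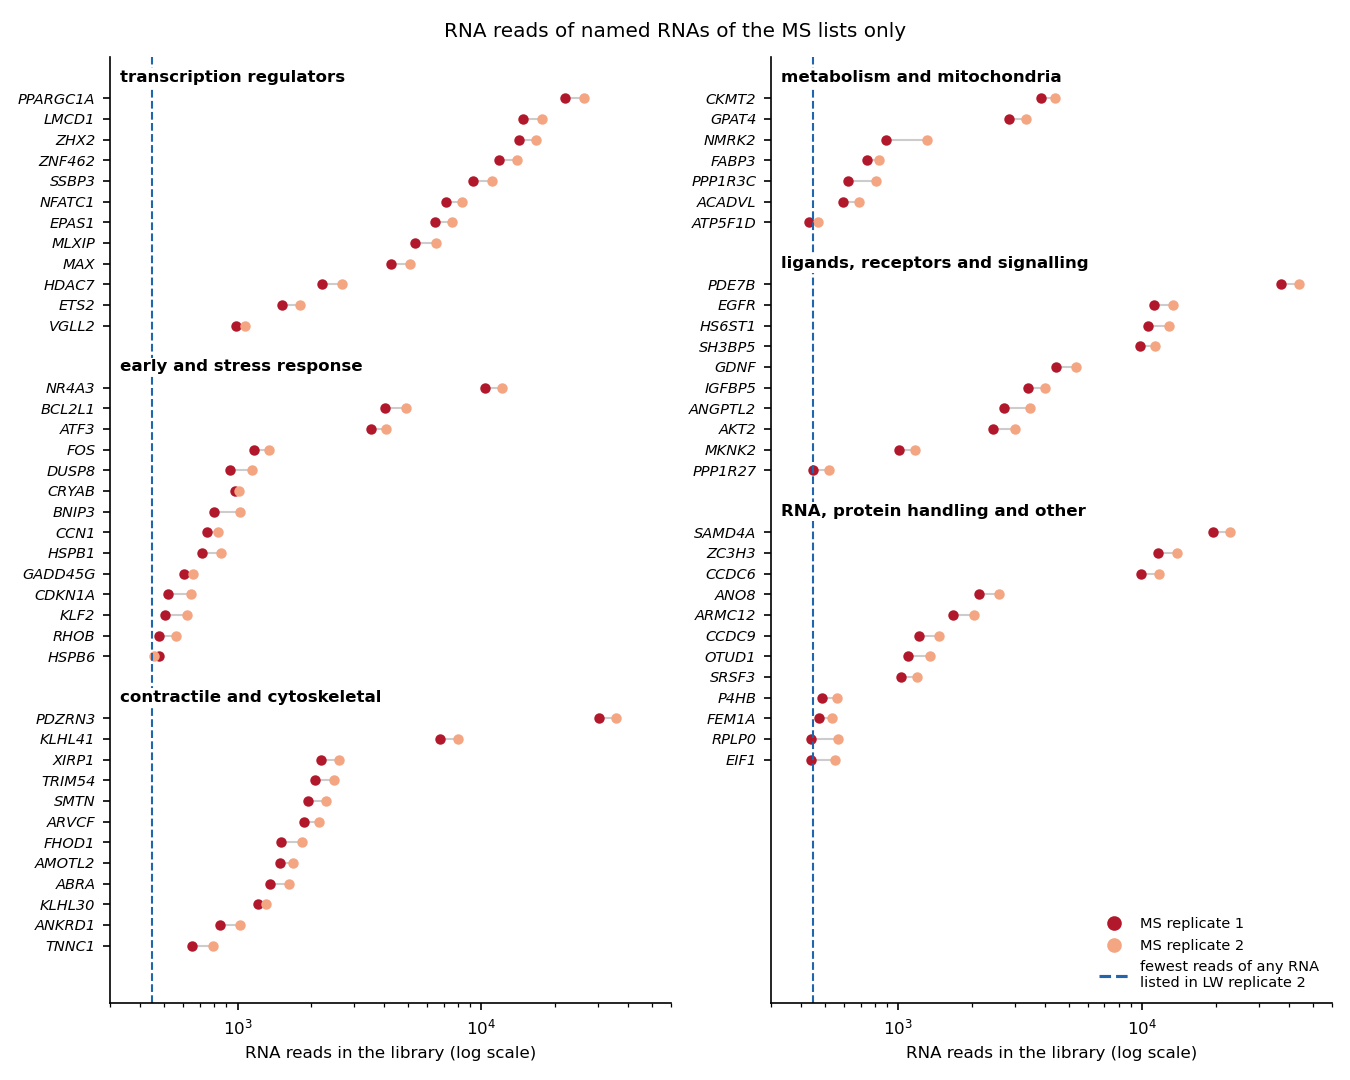
RNA reads of 67 of the 71 RNAs (horizontal axis, log scale) in MS replicate 1 (dark) and MS replicate 2 (light), in groups by the known role of the gene. The dashed line stands at 446 reads, the fewest of any RNA listed in LW replicate 2, and PDE7B lies furthest from it with 37231 and 43755 reads.

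An RNA left out of a list has no read number there, so whether reads alone decided the listing cannot be told. PDE7B had 83.5 times the smallest listed number of LW in its lower MS library, 21 of the 71 RNAs had at least 10 times that number in both MS libraries and 36 had at least 4 times, while 18 had under 2 times. Among the 257 RNAs of all 4 libraries, the ratio of MS to LW reads had a median of 0.910, and 12 exceeded 2-fold. Listing also differed between replicates of a breed at high reads. DSC2 had 95526 reads in MS replicate 1 and was not listed in MS replicate 2, and ICAM2 had 73722 reads in MS replicate 2 and was not listed in MS replicate 1. In all, 26 named RNAs with at least 10000 reads in MS replicate 2 were not in the list of MS replicate 1, and 29 of LW replicate 2 were not in that of LW replicate 1. The reverse held for 5 RNAs in MS and 2 in LW. At any number of reads, 113 named RNAs were listed in MS replicate 2 but not in MS replicate 1 and 18 the other way round, with 91 against 22 in LW. A missing entry in LW is therefore no measured level of zero, and no fold change between the breeds can be given for the reads of these 71 RNAs.

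Just outside the choice lay 34 named RNAs of both MS libraries and 1 LW library, and 64 of 1 MS library and no LW library. IRS1, an adaptor of the insulin receptor, had 16002 and 18944 reads in MS and was listed in LW replicate 2 alone with 6652. ZNF592 had 23027 and 26978 reads in MS and 17129 in LW replicate 2, and the spliceosomal RNA U12 had 16003 and 19695 in MS and 22214 in LW replicate 2. Among those of 1 MS library, CACNA1E had 63585 reads in MS replicate 2, and SLC9A3 and PRMT8 had 47647 and 39697 in MS replicate 1. At the other limit, ATP5F1D with 432 and 466 reads, HSPB6 with 476 and 455 and PPP1R27 with 446 and 521 were the least read of the 71.

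No RNA of another name covered any of the 71 genes on the same strand in a LW library. On the opposite strand, DUSP8 lay over TNNT3, the fast troponin T gene, which had 33453 and 36877 reads in LW and 29704 and 35665 in MS. NMRK2 lay over a pair of unnamed transcripts in every library, the larger with 6015 and 6544 reads in LW and 2980 and 3428 in MS. Which strand each read came from was taken from the lists, and its accuracy at these overlaps was not tested. PDZRN3 shared its strand with an Ensembl gene of 581 reads in MS replicate 2.

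The 71 genes lay on 16 autosomes, with 10 on chromosome 14, 9 on chromosome 2 and 7 each on chromosomes 1, 6 and 13. The closest pair was P4HB and PPP1R27 on chromosome 12, 5 kb apart on the same strand, so their windows of chromatin overlap and they are not independent. SRSF3 and CDKN1A followed at 60.9 kb on chromosome 7, and ANKRD1 and PPP1R3C at 661 kb on chromosome 14.

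Transcription regulators made up 12 of the 71, and this group had the highest median of the 6 roles, 7371 reads as the mean of the MS libraries. It also had the longest genes of the 6 roles by median, 78.4 kb, and reads went with gene length, as given below. PPARGC1A (chr8:17841845-17961909, Sscrofa11.1, minus strand), the coactivator of mitochondrial genes, had 22025 and 26233 reads in MS replicates 1 and 2. LMCD1, a LIM domain cofactor, had 14821 and 17780 reads. ZHX2, a homeobox repressor, had 14214 and 16711 reads, and ZNF462, a zinc finger protein, had 11796 and 14007. Below them came the LIM complex cofactor SSBP3, the calcium-responsive factor NFATC1, the hypoxia factor EPAS1 with 6435 and 7547 reads, the glucose-sensing factor MLXIP with 5330 and 6496, and MAX, the partner of MYC. The deacetylase HDAC7, ETS2 and the muscle TEAD cofactor VGLL2 with 984 and 1070 reads closed the group.

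The 14 genes of the early and stress response had a median of 851 reads and were short, with a median length of 4.67 kb. NR4A3, an orphan nuclear receptor induced by exercise, stood first with 10325 and 12171 reads, followed by the survival factor BCL2L1 with 4035 and 4922 and the stress factor ATF3 with 3516 and 4078. FOS, the classical immediate early factor, had 1170 and 1348 reads. The small heat shock proteins were all low in total reads, CRYAB with 975 and 1010 reads, HSPB1 with 714 and 855, and HSPB6. The rest were the phosphatase DUSP8, the mitophagy receptor BNIP3, the matrix protein CCN1, the growth arrest genes GADD45G and CDKN1A, the shear-responsive factor KLF2 and the small GTPase RHOB, all between 478 and 1150 reads.

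Among 14 contractile and cytoskeletal genes, PDZRN3 (chr13:54659590-54904900, minus strand), a ubiquitin ligase of the neuromuscular junction, had 30437 and 35717 reads. KLHL41, which keeps nebulin stable, had 6790 and 8013 reads. The others with fewer reads, from the Xin repeat protein XIRP1 with 2209 and 2599 reads down to the slow troponin C gene TNNC1 with 650 and 792, included the ubiquitin ligase TRIM54, the actin-binding activator of serum response factor ABRA and the titin-binding protein ANKRD1.

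The 7 genes of metabolism and mitochondria had the lowest median, 786 reads, at a median gene length of 6.52 kb. CKMT2, the mitochondrial creatine kinase, had 3830 and 4387 reads, and GPAT4, an enzyme of glycerolipid synthesis, had 2855 and 3335. NMRK2, a kinase for nicotinamide riboside, had 887 and 1307 reads, the highest ratio of MS replicate 2 to MS replicate 1 among the 71 RNAs, 1.47. The fatty acid binding protein FABP3 had 743 and 829 reads, the glycogen targeting subunit PPP1R3C had 619 and 809, the long-chain fatty acid oxidation enzyme ACADVL had 594 and 688, and ATP5F1D is a subunit of ATP synthase.

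In the group of 12 ligands, receptors and signalling genes, PDE7B (chr1:27958271-28302412, minus strand), a phosphodiesterase of cyclic AMP, had the most reads of all 71 RNAs. EGFR, the epidermal growth factor receptor, had 11189 and 13423 reads, and HS6ST1, which sulfates heparan chains, had 10600 and 12908. GDNF, a nerve growth factor, had 4419 and 5341 reads, IGFBP5, a binding protein of insulin-like growth factors, had 3403 and 3981, and the insulin signalling kinase AKT2 had 2451 and 3019. SH3BP5, ANGPTL2, MKNK2 and PPP1R27 were also in this group.

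The remaining 12 genes handle RNA or protein or have other roles. SAMD4A (chr1:183915340-184140122, plus strand), an RNA-binding translational repressor, had 19590 and 22956 reads, ZC3H3, a factor of mRNA export, had 11572 and 13848, and CCDC6 had 9876 and 11726. The splicing factor SRSF3 had 1028 and 1192 reads. The ribosomal protein gene RPLP0, the translation factor EIF1, the protein disulfide isomerase P4HB and FEM1A had between 438 and 566.

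Set by gene name against 13 gene lists of muscle pathways, 20 of the 71 genes had a place in at least 1. Of 11 listed RNAs of fatty acid and lipid metabolism, 3 were among the 71 (ACADVL, FABP3 and PPARGC1A) and 3 were in all 4 libraries. Of 10 RNAs of insulin and IGF signalling, 3 were among the 71, AKT2 and IGFBP5 included, and 2 were in all 4. Heat shock and stress had 4 of 11 (ATF3, CRYAB, HSPB1 and HSPB6), immediate early genes 3 of 9 (FOS, KLF2 and NR4A3), FOXO and atrophy 2 of 8 (BNIP3 and KLHL41). Sarcomere and Z-disc genes had 3 of 37 (ANKRD1, TNNC1 and XIRP1), and 30 of these 37 were in all 4 libraries. Glycolysis and glycogen had 1 of 18 and splicing 1 of 13. The gene lists of calcium handling, myogenic factors, circadian clock, extracellular matrix and chromatin held none of the 71. These lists are partial, since the deacetylase HDAC7 and the matrix protein CCN1 are among the 71 but not in them. The 52 RNAs of the LW lists alone held 2 RNAs of lipid metabolism and 2 of glycolysis and glycogen. They held 1 each of insulin signalling, heat shock, calcium handling and extracellular matrix, and none of the remaining lists. Over all named RNAs, 71 of 604 were among the genes described here. These are counts of listing, which chose the genes, and were not tested.

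The reads of an RNA went with the length of its gene. Across the 71 genes, from 1.21 to 344 kb long, Spearman's rho of length and reads was 0.932 in both MS libraries, over genes that share libraries. Per kb of gene, the levels ran from 51.1 to 942 reads, and the order changed. OTUD1, a deubiquitinase of 1.44 kb, had 765 and 942 reads per kb, GADD45G 388 and 420, PPP1R27 370 and 432, XIRP1 361 and 425, and HSPB1 361 and 432. PDE7B, first by reads, had 108 and 127 reads per kb.

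**Figure D2:**
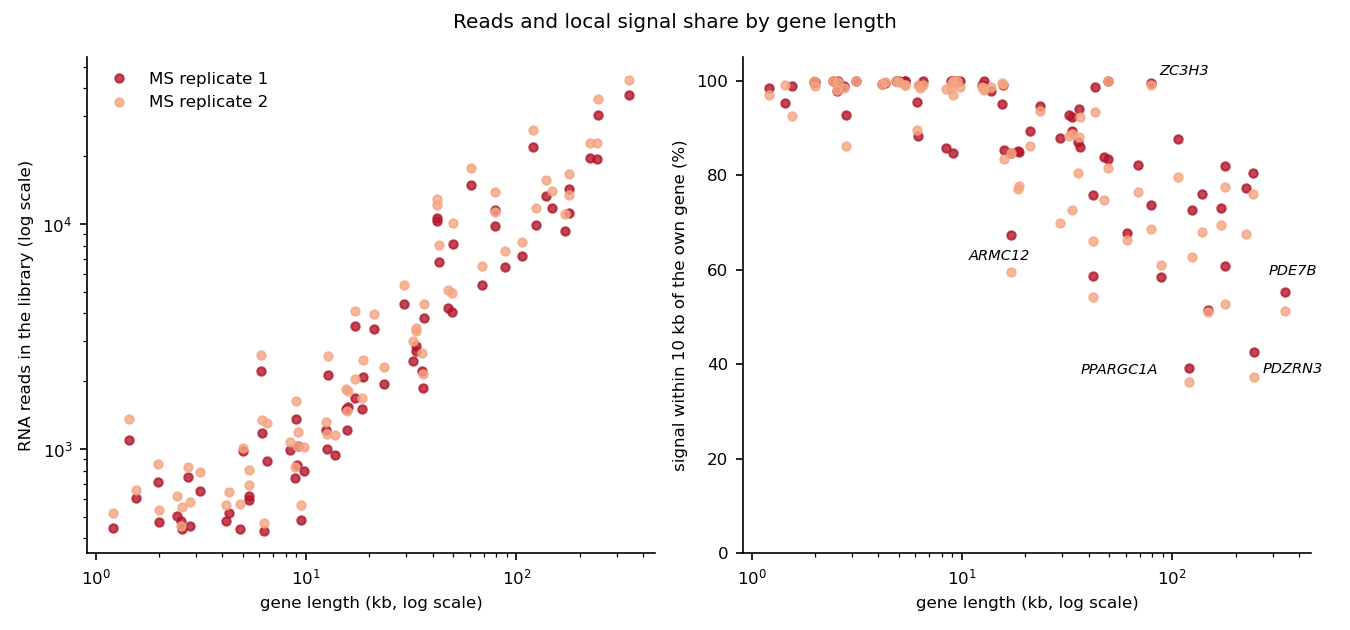
Reads (left, log scale) and the share of signal within 10 kb of the own gene (right, in percent) against gene length in kb (log scale) for the 71 RNAs, with a point for each MS library. Reads climbed with length, and PPARGC1A and PDZRN3 were the 2 genes with a share below 50%.

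Each RNA was listed with a background-corrected signal in 1-kb bins of the genome, which tells where it lay. Most of it lay at home. The share of signal within 10 kb of the own gene had medians of 92.8% and 92.6% in the MS replicates, and 32 and 33 of the 71 RNAs had at least 95%. Signal weighs the strong bins at the gene, and by number of bins the share was 50.0%. The strongest bin overlapped the gene itself for 71 RNAs in MS replicate 1 and 70 in MS replicate 2, and lay upstream of the start for none in either library. For 26 RNAs, every bin in both libraries lay within 20 kb, among them ANKRD1 with all signal local in both.

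At the other end stood 2 RNAs with under 50% of their signal at home in both libraries. PPARGC1A kept 39.3% and 36.2% within 10 kb of its gene and had 1495 and 1826 bins further away on chromosome 8. PDZRN3 kept 42.7% and 37.4% and had 2711 and 3625 such bins on chromosome 13. PDE7B kept 55.3% and 51.3%, with 2205 and 3272 bins beyond 10 kb on chromosome 1. ZNF462, ZHX2, HS6ST1 and EPAS1 followed, with local shares from 51.0% to 61.0%, and ARMC12, with a gene of 17.1 kb, kept 67.4% and 59.4%. ZC3H3, with a gene of 79.1 kb, kept 99.4% and 99.0%. The relation of this share to gene length was not tested.

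A bin more than 1 Mb away was listed for 16 RNAs in MS replicate 1 and 18 in MS replicate 2, 14 of them in both. Bins of PDZRN3 spanned 117319 and 131698 kb of chromosome 13, those of PDE7B 208139 and 110965 kb of chromosome 1, and those of SAMD4A 86425 and 100224 kb. The spans of LMCD1 and PPARGC1A were 27958 and 93747 kb and 55148 and 26428 kb, so a span rested on its farthest bin and differed between the libraries by over 2-fold. Bins on other chromosomes were few. PDE7B had 76 and 66 of them, 0.479% and 0.309% of its signal, while PDZRN3 and PPARGC1A had 46 and 23 in MS replicate 1 and none in MS replicate 2. By comparison, 39 and 47 of the 257 RNAs of all 4 libraries had bins on other chromosomes, and their median local share was 92.1% and 85.3%. The number of bins beyond 10 kb also went with reads, with Spearman's rho of 0.821 and 0.794 over the 71 RNAs, so a wide reach and many reads were found in the same RNAs.

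H3K27ac loops were then taken at the same genes in both breeds, counting every loop that had a 5-kb anchor no more than 1 kb from a gene end. The lists held 57028 and 43282 loops in LW and 45061 and 33353 in MS. Of the 71 genes, 70 had a loop in LW and 69 in MS, 61 had one in each of the 4 libraries, and 1 had none. RPLP0 had a single loop, in LW replicate 1. The genes thus carried loops in the breed whose lists left out their RNA. The sum over the genes came to 711 LW loops and 625 MS loops. The breeds had 351 of them in common, 49.4% of the LW loops and 56.2% of the MS loops. Loops in LW outnumbered those in MS at 36 genes, the reverse held at 21 and the numbers were equal at 14, in lists of which LW had the more. The median was 8 loops per gene in each breed, and 2 and 1 when a loop had to be called in both libraries of the breed.

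Per library, the median of the 71 genes was 6 and 5 loops in LW and 4 and 5 in MS, above the 2, 1, 2 and 1 of all genes tested. The RNAs of all 4 libraries had 5, 5, 4 and 4 and those of the LW lists alone 4, 5, 4 and 4, so a high number of loops was found at genes of listed RNAs in general. Counting each loop once over all 4 libraries together, most were at GADD45G with 42, then CCDC6 with 39, ETS2 with 36, NR4A3 with 31, and SAMD4A and VGLL2 with 30 each.

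A loop called in all 4 libraries was present at 40 genes, 70 such loops in all. VGLL2 and PPP1R3C had 5 each. The start of VGLL2 was joined to an element 90 kb away (chr1:44645001-44650000), at a −log10 FDR of 44.9 and 102 in LW against 43.7 and 121 in MS. The start of PPP1R3C was joined to one 40 kb away (chr14:103235001-103240000), with 41.2 and 114 in LW against 54.9 and 121 in MS. NR4A3 reached 545 kb to chr1:241020001-241025000 with 59.4 and 194 in LW against 40.5 and 235 in MS. At GADD45G, a loop of 485 kb had 92.8 and 44.6 in LW against 77.1 and 44.7 in MS, while one of 280 kb had 22.8 and 37.3 in LW against 57.2 and 111 in MS. PPARGC1A had 3 such loops, of 15, 30 and 455 kb, all at its start. In these examples the replicates of a breed differed by more than the breeds did, apart from the 280-kb loop of GADD45G.

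Some loops ended at another gene. CCDC6 was joined in all 4 libraries to the start or end of MRLN, which encodes the micropeptide myoregulin, 175 kb away, at a −log10 FDR of 5.85 and 15.8 in LW against 5.16 and 6.23 in MS. ANKRD1 and PPP1R3C, both among the 71, were joined to each other over 665 kb, with 5.35 in LW replicate 2, 2.10 and 4.50 in MS and without a call in LW replicate 1. The neighbours P4HB and PPP1R27 were joined over 5 kb in 3 libraries, with 6.37 and 15.5 in LW and 12.9 in MS replicate 2.

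**Figure D3:**
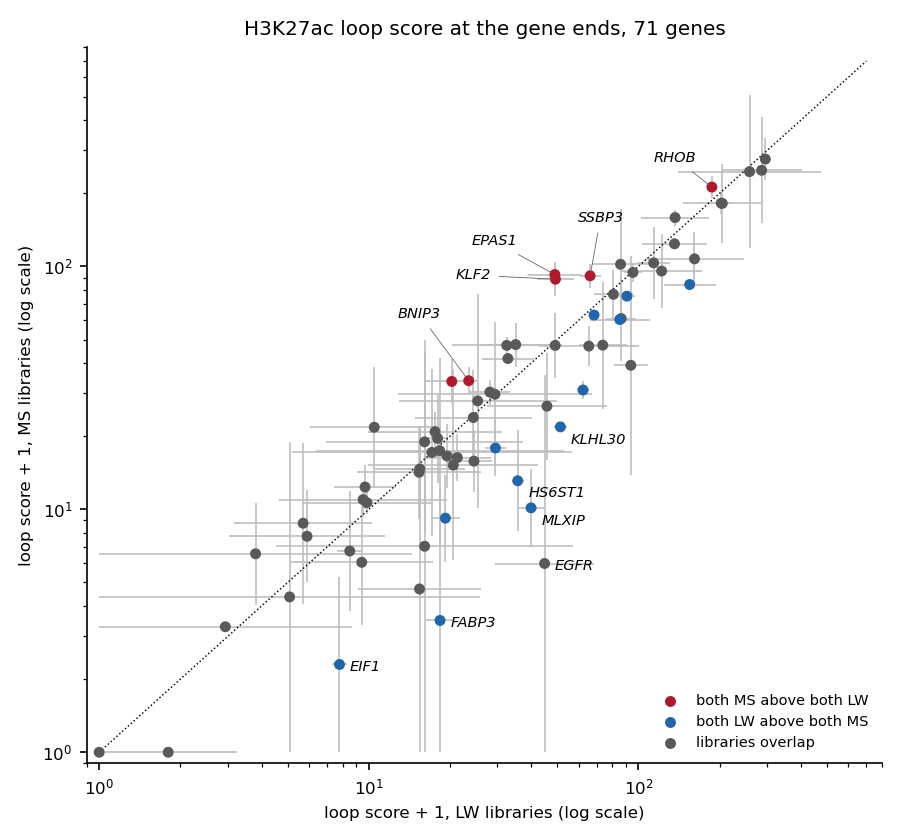
Loop score plus 1 of the 71 genes in the MS libraries (vertical) against the LW libraries (horizontal), both on log scales. Each point is the geometric mean of 2 libraries, the lines run from the lower to the higher library and the dotted line marks equal scores, and 6 genes had both MS libraries above both LW libraries and 12 the reverse.

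To compare the breeds, the −log10 FDR of all loops of a gene was added up to its loop score, quantile-normalized over the 4 libraries and tested by limma over 15364 genes on the log2(score + 1) scale, which understates changes of low genes. A gene was called at an absolute log2 fold change above 1.5 with an unadjusted p under 0.05. None of the 70 genes with a loop was called, against 2.52% of all genes called higher in MS and 2.84% called higher in LW. No gene of the whole table had an adjusted p under 0.05 by limma, and at an unadjusted p under 0.05 there were 823 genes, 5.36% of the table, with none of the 71 among them. The median log2 fold change, MS minus LW, was 0.10 for the 70 genes and −0.02 for all genes. Without normalization these medians were −0.12 and −0.38, and the calls split 258 to 859 in place of 387 to 436 between MS and LW, so the sign of the small difference depended on the scaling. A test of 2 libraries against 2 by exact permutation cannot give a p below 0.333.

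Before normalization, both MS libraries lay above both LW libraries at 6 of the 70 genes, where the share of all genes was 6.95%, and below them at 12, where it was 21.1%. EPAS1, KLF2, BNIP3, SSBP3 and RHOB were among the 6. EPAS1 (chr3:94165816-94254079, minus strand) scored 37.8 and 60.8 in LW against 81.0 and 103 in MS, a log2 fold change of 1.24 ± 0.77 (SE, 2 libraries per breed). The limma p was 0.152 and the adjusted p was 0.995. Its start was joined over 205 kb to chr3:94455001-94460000 in every library, at a −log10 FDR of 9.90 and 15.2 in LW against 26.4 and 25.6 in MS. KLF2 scored 56.9 and 40.9 in LW against 74.8 and 103 in MS, a log2 fold change of 1.04 ± 0.77, and its 70-kb loop to chr2:61340001-61345000 had 17.4 and 18.9 in LW against 40.1 and 27.3 in MS. BNIP3 had 22.0 and 22.9 against 28.6 and 37.7, and SSBP3 had 59.5 and 71.4 against 101 and 80.8. The adjusted p-values from limma were 0.995 for EPAS1, KLF2, BNIP3 and SSBP3 and 1 for RHOB.

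In the other direction, MLXIP (chr14:30577662-30646243, minus strand) scored 43.6 and 34.8 in LW against 5.98 and 13.7 in MS, a log2 fold change of −1.74 ± 0.84 with a limma p of 0.0789 and an adjusted p of 0.995. A 55-kb loop into its gene body reached 28.4 and 11.9 on this scale in LW and was not called in MS. FABP3 had 15.3 and 19.7 in LW, no loop in MS replicate 1 and 11.2 in MS replicate 2. HS6ST1 had 32.8 and 36.6 against 20.2 and 7.11, KLHL30 had 47.7 and 53.1 against 21.2 and 20.5, and EIF1 had a single 5-kb loop with 6.29 and 7.32 in LW, 4.28 in MS replicate 2 and none in MS replicate 1. The libraries of these 5 genes did not overlap, and no call was made. Without MS replicate 2, the one with the fewest loops, MLXIP, FABP3 and EIF1 were called higher in LW, and without normalization MLXIP alone was, with a log2 fold change of −1.98. The values of FABP3 and EIF1 rested on MS replicate 1, where neither had a loop. The log2 fold change of FABP3 went from −2.07 to −0.12 without that library and to −4.09 without MS replicate 2, and that of EIF1 from −1.32 to 0.11 and −2.88. With a window of 5 kb around the gene ends, MLXIP had −0.35 and FABP3 −1.03, and with RefSeq gene ends FABP3 had −1.07. EGFR, with 67.5 and 28.4 in LW, 34.8 in MS replicate 1 and no loop in MS replicate 2, was called higher in LW without LW replicate 2, without MS replicate 1 or with a replicate block, and under no other setting.

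**Figure D4:**
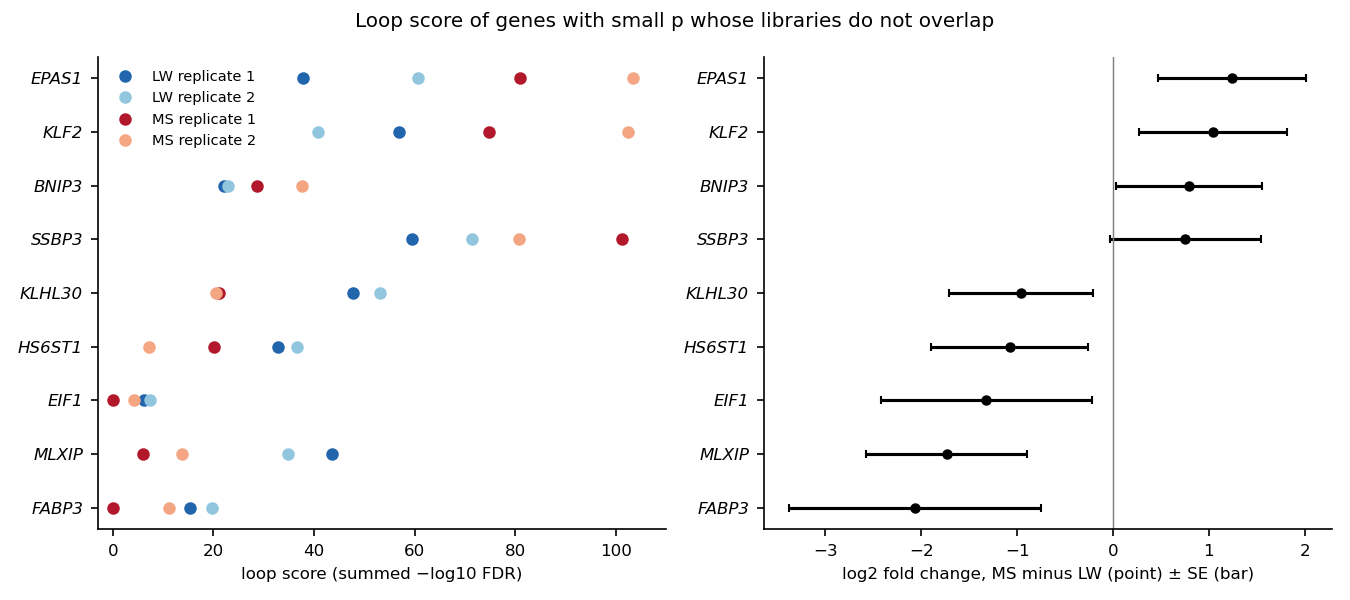
Loop scores in each library (left) and log2 fold change, MS minus LW, with its SE (right) for some of the genes with the smallest p in either direction among those without overlap of the breeds. Of the genes drawn, EPAS1 had the largest positive change, 1.24, and FABP3 the largest negative one, −2.07, which became −0.12 without MS replicate 1.

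Bins of the RNAs beyond 10 kb on their own chromosome were also set against the loop anchors of the same gene. In MS replicate 1, 708 of 15213 such bins, 4.65%, lay on the anchors of the gene's own MS loops, and 818, 5.38%, on those of its LW loops. In MS replicate 2 the shares were 3.72% and 4.30% of 21897 bins. The anchors of the LW loops, which were more numerous, held more of these bins than those of the MS loops in both libraries. The share of other bins on such anchors was not computed, so these shares cannot be called low or high.

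The last measure was the signal of RNAs encoded on other chromosomes, summed over each gene with 5 kb on either side. It came from the same 4 GRID-seq lists whose entries chose the 71 genes, so it is not independent of that choice. At the 71 genes, such RNAs were listed at 45 and 54 genes in LW, against 61 and 67 in MS. Of the 22960 genes tested, 10483 and 12119 had such signal in LW, against 14579 and 16224 in MS. Over the 70 genes with signal in any library, the median signal was 10.9 and 17.6 in LW against 45.5 and 58.2 in MS. Over all 22960 genes tested the medians were 0 and 0.341 in LW against 7.70 and 11.8 in MS, so MS was also higher across the table. After quantile normalization, the median log2 fold change, MS minus LW, was 1.26 for the 70 genes and 0.34 for all genes, and without normalization 1.76 and 0.93. With normalization it was 0.93 for 254 named RNAs of all 4 libraries and 0.68 for 49 of the LW lists alone.

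Both MS libraries exceeded both LW libraries at 32 of the 70 genes, 45.7%, where the share of all genes was 25.9%. The reverse held at 1 gene, where it was 8.57%. The share was similar for the named RNAs of all 4 libraries, at 46.5% of 254 genes, and for those of the LW lists alone, at 40.8% of 49 genes, so it was not particular to the 71. By limma with a log2 fold change above 2 and an unadjusted p under 0.05, 7 of the 70 were called higher in MS, where the share of all genes was 8.4%, and 1 was called higher in LW, where it was 5.81%. No gene of the table had an adjusted p under 0.05, and 3263 genes, 14.2%, had an unadjusted p under 0.05. Without normalization, the calls of all genes split 2700 to 751 between MS and LW in place of 1929 to 1334.

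The 7 genes were NMRK2, RHOB, CCN1, XIRP1, CCDC6, P4HB and PPP1R27. NMRK2 had no such RNA listed in either LW library, which was entered as 0. It had a signal of 51.6 and 161 in MS, with a limma p of 0.00348 and an adjusted p of 0.167. RHOB also had none listed in LW and had 37.7 and 76.7 in MS, with a limma p of 0.00343 and an adjusted p of 0.167. CCN1 had 21.0 and 69.9 in MS and XIRP1 had 16.8 and 62.3, both without a listed entry in LW. A missing entry is no measured level of zero, so the p-values of NMRK2, RHOB, CCN1 and XIRP1 rest on filled values. CCDC6 had signal in every library, 17.2 and 14.1 in LW against 237 and 158 in MS, a log2 fold change of 3.06 ± 0.84 (SE) with a limma p of 0.0268 and an adjusted p of 0.247. P4HB had 6.92 and 6.01 against 129 and 74.1, and its neighbour PPP1R27 had 13.4 and 10.9 against 137 and 118, in windows that overlap. TNNC1 alone went the other way, with 95.7 and 29.8 in LW against 9.86 and 0 in MS, a log2 fold change of −4.59 ± 1.45 with a limma p of 0.0396 and an adjusted p of 0.306. NMRK2 and RHOB were called under every setting tried, whereas the calls of CCN1, XIRP1 and CCDC6 were lost without either LW library, with p of 0.0564, 0.0699 and 0.0564 without LW replicate 1 by limma, that of P4HB was lost without either LW library or MS replicate 1, that of PPP1R27 without either MS library, and that of TNNC1 without any of the 4 in turn. With a pseudocount of 0.1 the calls of CCDC6, P4HB, PPP1R27 and TNNC1 were lost, with a replicate block those of CCDC6, P4HB and PPP1R27 were lost while PDZRN3 was called, without normalization that of TNNC1 was lost, and among genes with a value in at least 2 libraries that of P4HB was lost.

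**Figure D5:**
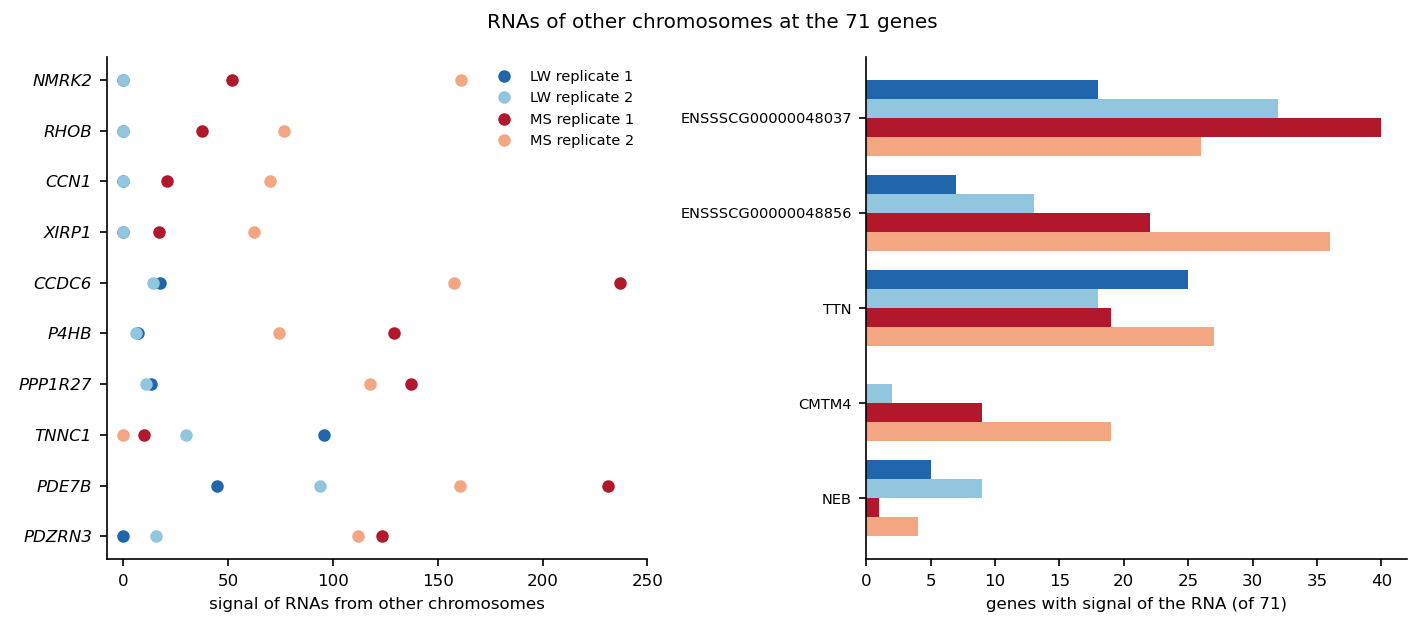
Signal of RNAs from other chromosomes in each library (left) at the 8 called genes and at PDE7B and PDZRN3, and the number of the 71 genes with signal of each of 5 RNAs (right). ENSSSCG00000048856 RNA was found at 7 and 13 genes in LW and at 22 and 36 in MS, whereas TTN RNA was found at 25 and 18 and at 19 and 27.

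The RNAs that gave this signal differed in how they were spread. The unnamed RNA ENSSSCG00000048856 (chr2:6752141-6757157) was found at 7 and 13 of the 71 genes in LW and at 22 and 36 in MS, and made up 8.36% and 10.04% of the signal in LW against 12.4% and 19.9% in MS. Over the whole genome its bins on other chromosomes numbered 17294 and 26322 in LW against 33151 and 59062 in MS, so it was listed in more bins across the genome in MS. It had 198855 and 219847 reads in LW against 205368 and 243863 in MS. CMTM4 was at 0 and 2 genes in LW and at 9 and 19 in MS. Over the whole genome it was also listed in more bins on other chromosomes in MS, 8523 and 17096 against 759 and 1350 in LW. TTN, the giant sarcomeric protein, was at 25 and 18 genes in LW and 19 and 27 in MS, ENSSSCG00000048037 at 18 and 32 and at 40 and 26, and the thin filament protein NEB at 5 and 9 and at 1 and 4. At these genes the breeds overlapped for TTN and ENSSSCG00000048037, and NEB was at fewer genes in MS. Across the genome, NEB was also listed in fewer bins on other chromosomes in MS, 1849 and 4063 against 9025 and 14373 in LW. TTN was in more such bins in MS, 191138 and 156654 against 108159 and 88043 in LW.

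At RHOB, ENSSSCG00000048856 filled 15 bins in each MS library and none in LW. P4HB had 21 bins of it in each MS library and none in LW, CCDC6 had 22 and 23 against none, and PDE7B had 35 and 66 against none. These genes were chosen after their values were seen. NMRK2 had no bin of it in any library, and XIRP1 had 16 in MS replicate 2 alone. The part of this RNA in the difference at these genes was not tested.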

How the data were processed

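The H3K27ac BL-HiChIP and GRID-seq lists of longissimus muscle, with 2 libraries per breed and assay, were grouped by the breed and replicate in the labels. For BL-HiChIP the authors removed the bridge linker, aligned the pairs to Sscrofa11.1 and ran FitHiChIP on every library; the value deposited per loop was read as an adjusted p-value (FDR). For GRID-seq the authors separated RNA and DNA ends by their linker, aligned them by Bowtie2 and kept chromatin-enriched RNAs; the deposited whole number per RNA was read as its count of reads and the deposited value per 1-kb bin as a background-corrected signal, at least 0.02. Both readings rest on the values, because the lists have no column names. What decided whether an RNA was listed is not given in the sources used here.

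Names starting with Tx. or ENSSSCG and 1 gene were left out, and results for some other genes are not reported here, although counts over the 71 genes include them. Gene ends came from the GRID-seq lists for named RNAs, otherwise from RefSeq (Sscrofa11.1): 69 of the 71 genes matched by name and 1 by position. Repeated pairs of RNA and bin were summed. Loop scores capped each loop at 300. Scores and signals with a value in at least 1 library were fitted with limma 3.58.1 (lmFit, eBayes) in R 4.3.3 after quantile normalization, on log2(value + 1), with Benjamini-Hochberg adjustment, and the code was tested on simulated data. The rest was done in Python 3.11.15 (pandas 2.3.3, numpy 2.4.6, scipy 1.17.1, matplotlib 3.10.9).

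The members, roles and gene lists were chosen with earlier results of these data known. Genes named are the 12 RNAs of most and the 3 of fewest reads, those with bins on other chromosomes, the 5 of widest span, the 5 with most loops, up to 5 genes of smallest p per direction and test whose libraries did not overlap, members of the gene lists, and the 3 most read of each set just outside; other members are named with their role, and the loops ending at MRLN or at another member, OTUD1, ARMC12, ZC3H3 and EGFR were chosen after their values were seen. Alternatives covered normalization, pseudocount, filters, windows, gene ends, FDR, a replicate block and leaving out each library.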

Additional observations from a re-analysis of the deposited data

How the results depend on the processing

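Requiring 1 MS library in place of both gave 135 genes in place of 71, a minimum of 1000 reads in each MS library gave 47, and leaving out a library in turn gave 76 to 124. The median reads, scaled to 1000000 listed reads, went from 245 to 341 when the 2 RNAs of most reads were left out of the total. The median local share of 92.7% became 50.0% by bins and 99.9% within 50 kb. The median of 8 loops per gene became 2 in LW and 1 in MS when both libraries of a breed had to hold the loop.

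For the loop test, no gene of the table passed an adjusted p of 0.05 under any setting. Among the 71, 1 was called higher in LW with RefSeq gene ends, where the share of all genes was 2.85%. Without normalization 1 was (MLXIP), where 859 genes of the table, 5.59%, were called higher in LW. With a pseudocount of 0.1, 954 genes were called higher in MS. Leaving out a library gave 443 to 873 genes called higher in MS and 296 to 883 in LW, and 0 to 1 (HSPB6) and 0 to 3 of the 71. Leaving out a library gave EIF1 a log2 fold change from −2.88 to 0.11, the last without MS replicate 1, where the direction reversed with an unadjusted limma p of 0.882.

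For RNAs of other chromosomes, windows at gene ends alone called 2 of the 71 higher in LW (KLHL41 and TNNC1), where the share of all genes was 5.76%. Without normalization 751 genes of the table, 3.27%, and 0 of the 71 were called higher in LW. With a pseudocount of 0.1, 4 of the 71 were called higher in MS and 0 in LW. The shares of all genes under that setting were 10.2% and 4.59%. Leaving out a library gave 2102 to 3576 genes called higher in MS and 1219 to 2529 in LW, 7 to 13 and 0 to 1 of the 71, and 0 to 2745 genes with an adjusted p under 0.05, the last without MS replicate 2. In these fits the lone library of a breed is assumed to vary like the pair of the other. The cause of these changes was not tested.

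Replicate numbers are shared between the breeds, but the labels name no shared source. The difference of replicates 1 and 2 in LW and in MS correlated across genes with r = 0.355 for loop scores and −0.02 for the other signal. With a replicate block, 593 and 706 genes, 3.86% and 4.60%, were called higher in MS and LW for loops, with 1 of the 71 higher in LW (EGFR). For RNAs of other chromosomes 1220 and 796 genes were, 5.31% and 3.47%, with 5 and 1 of the 71. There CCDC6, P4HB and PPP1R27 were lost and PDZRN3 was gained. The 2 libraries per breed limit every call.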
